A study of Bos taurus with 16 samples.

Results

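Collagens, laminins, nidogens and integrins form the extracellular matrix and the receptors by which cells hold on to it. In the array annotation, 53 of 9155 named genes carry a symbol that starts with COL and a digit, with LAMA, LAMB or LAMC and a digit, or with ITGA or ITGB, or are NID1 or NID2. They comprise 23 collagen genes, 7 laminin and nidogen genes, 12 integrin alpha chains, 7 integrin beta chains and 4 genes that the prefix takes in although they encode no integrin chain. These genes are represented by 101 probe sets. Of a gene's probe sets, the one with the brightest average signal on the 16 arrays stands for the gene, and 30 genes have more than 1.

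The cells were theca interna cells, the steroid-producing layer of the follicle wall, taken from ovaries of adult cattle collected at slaughter. Each culture pooled cells of about 50 follicles of 4 to 6 mm and was kept serum-free for 6 days, and the experiment was repeated 4 times with different batches of ovaries. From day 3 to day 6 the cultures received bone morphogenetic protein 6 (BMP6, 10 ng/ml), luteinising hormone and BMP6 (LH+BMP6), luteinising hormone (LH, 160 pg/ml) or neither (control). Every group has 4 arrays, and values are log2 signals, which are comparable between groups for 1 probe set but not between probe sets.

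Fibrillar collagens give tissue its tensile strength, and fibril-associated collagens sit on the surface of those fibrils. Collagen IV and laminins each form a sheet in basement membranes, and nidogens link these sheets. In the follicle such a membrane separates the theca interna from the granulosa cells. An integrin is a pair of 1 alpha and 1 beta chain, and the pair sets the ligand, which can be collagen, laminin, fibronectin or, for the leukocyte integrins, a protein on another cell.

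Several facts about the arrays bear on what follows. The 9 probe sets for spiked hybridisation controls averaged 8.66 to 8.71 on 3 arrays (control replicate 1, control replicate 3 and LH replicate 1) and 9.84 to 10.17 on the other 13. The 3′ minus 5′ difference of actin, a sign of RNA integrity, was 1.39 to 2.21 on the 8 arrays with BMP6 and 1.69 to 2.49 on the 8 without, and its part in the results was not tested. Of 7 markers of steroidogenic theca cells, 6 fell in BMP6 against control and 7 fell in LH+BMP6 against LH, with median log2 differences of -2.21 and -2.73. INSL3, a theca hormone, had a log2 signal of 6.85 to 10.12 in BMP6 cultures, against 13.88 to 14.29 in control cultures, and 7.59 to 10.28 in LH+BMP6 cultures, against 14.02 to 14.18 in LH cultures. None of the 7 lay under the lower quartile of all signals on all 4 arrays of a group. In RNA from whole cultures, fewer cells of a type and less RNA per cell cannot be told apart.

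A gene is called where limma's adjusted p, taken over all 24016 probe sets tested, was under 0.05. In BMP6 against control, 8 of the 53 genes were called (15.09%), 4 higher and 4 lower, against 24.8% of all named genes (9.31% higher and 15.5% lower). In LH+BMP6 against LH, 13 were called (24.53%), 9 higher and 4 lower, against 27.2% of all named genes (11.7% higher and 15.5% lower). Neither share lies above that of all named genes. With the replicate number added to the fit as a fixed block, 13 and 15 of the 53 genes were called. The shares of all named genes under that block were not counted. The median log2 difference of the 53 genes was 0.05 in each of these comparisons, and that of all genes was -0.02 and -0.03. The 2 comparisons share no array, but both use 1 estimate of the spread over all 16 arrays, so they are not independent. They have 7 called genes in common, which is 87.5% of the genes called in BMP6 against control and 53.85% of those called in LH+BMP6 against LH, and 39 genes were called in neither. The same overlap was not counted over all named genes, so it is not shown to be particular to this family. No gene was called in the interaction of LH and BMP6 (0.0% of all named genes), so a call in 1 comparison only is not shown to be a difference between them. By the probe set that stands for each gene, 4 of 19 integrin chains were called higher and 0 lower in BMP6 against control, and 7 higher and 0 lower in LH+BMP6 against LH, while a dimmer probe set of ITGB5 was called lower in both. Of the 7 laminin and nidogen genes, 0 were called higher, and 1 and 2 were called lower. A difference between these classes was not tested. Of the 23 collagens, 0 were called higher and 3 lower in BMP6 against control, and 2 higher and 2 lower in LH+BMP6 against LH.

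**Figure D1:**
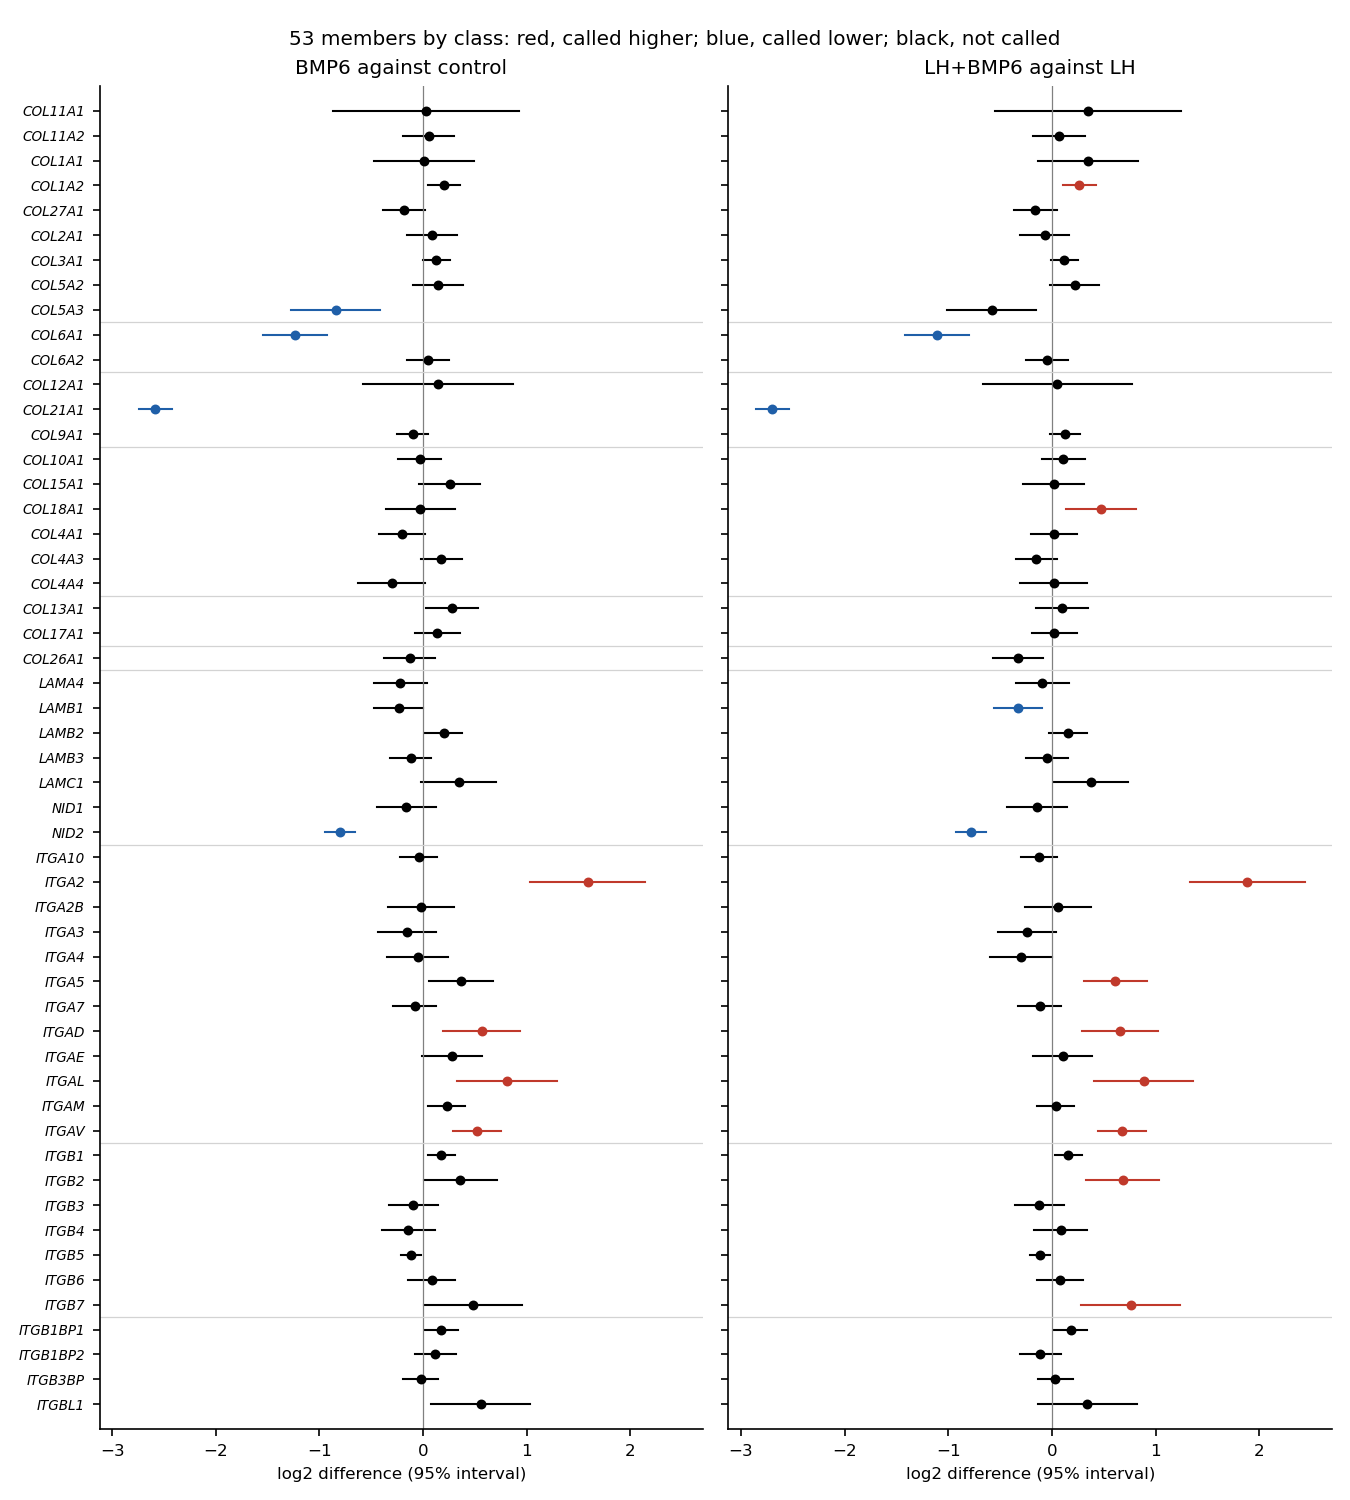
Log2 difference with 95% interval for the 53 genes, in BMP6 against control (left) and LH+BMP6 against LH (right), with horizontal lines between classes (collagen classes, laminins and nidogens, integrin alpha, integrin beta, and genes that are not integrin chains). Red marks genes called higher, blue genes called lower and black genes not called; COL21A1 lies farthest to the left and ITGA2 farthest to the right in both panels.

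COL21A1, a fibril-associated collagen, fell most of all 53 genes and separated the groups most cleanly. It had log2 signals of 8.74, 8.78, 8.76 and 8.83 in BMP6 cultures, against 11.44, 11.32, 11.25 and 11.44 in control cultures. In LH+BMP6 cultures the signals were 8.78, 8.49, 8.62 and 8.85, against 11.41, 11.31, 11.45 and 11.35 in LH cultures. All 8 arrays with BMP6 lay more than 2 log2 units under all 8 without it, and each group spread over far less than that gap. The log2 difference was -2.59 ± 0.08 (SE) in BMP6 against control, a 6.00-fold lower signal (limma adjusted p = 8.43e-13), and -2.70 ± 0.08 in LH+BMP6 against LH, a 6.49-fold lower signal (limma adjusted p = 4.11e-13). The other fibril-associated collagens were not called: COL12A1 differed by 0.14 ± 0.34 and 0.05 ± 0.34, and COL9A1, whose signal lay under the lower quartile on all 16 arrays, by -0.10 ± 0.07 and 0.12 ± 0.07.

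COL6A1 encodes the alpha 1 chain of collagen VI, which assembles with the alpha 2 chain and further chains into beaded filaments near the cell surface. Its log2 signals were 10.61, 10.81, 11.14 and 11.19 in BMP6 cultures, against 12.15, 12.30, 12.08 and 12.16 in control cultures. LH+BMP6 cultures had 10.64, 10.90, 10.97 and 11.40, against 11.84, 12.03, 12.33 and 12.16 in LH cultures. Again all 8 arrays with BMP6 lay below all 8 without. COL6A1 fell by 1.24 ± 0.15 on the log2 scale in BMP6 against control (limma adjusted p = 2.43e-05) and by 1.11 ± 0.15 in LH+BMP6 against LH (limma adjusted p = 5.82e-05). A second probe set of COL6A1 was called lower too (-0.72 ± 0.22, limma adjusted p = 0.0276, and -1.21 ± 0.22, limma adjusted p = 0.000766). The dimmest of its 3 probe sets was not called (0.03 ± 0.13 and -0.32 ± 0.13). COL6A2, the alpha 2 gene, lies next to COL6A1 in the RefSeq gene order of assembly ARS-UCD2.0. It was not called: the log2 difference was 0.05 (95% interval -0.16 to 0.25) in BMP6 against control and -0.05 (-0.25 to 0.15) in LH+BMP6 against LH. A dimmer COL6A2 probe set gave -0.41 ± 0.14 (limma adjusted p = 0.0552) and -0.29 ± 0.14 (limma adjusted p = 0.175), and the difference between the COL6A1 and COL6A2 changes was not tested.

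NID2, nidogen 2, was the called basement membrane gene with the tightest values. Its log2 signals were 11.02, 11.19, 11.02 and 11.15 in BMP6 cultures, against 11.95, 12.01, 11.77 and 11.87 in control cultures. They were 11.14, 11.08, 11.20 and 11.15 in LH+BMP6 cultures, against 12.05, 11.81, 11.86 and 11.98 in LH cultures. No array with BMP6 reached the lowest array without it. NID2 fell by 0.81 ± 0.07 in BMP6 against control, a 1.75-fold lower signal (limma adjusted p = 7.84e-07), and by 0.78 ± 0.07 in LH+BMP6 against LH (limma adjusted p = 1.06e-06). Its relative NID1 was not called (-0.16 ± 0.14 and -0.14 ± 0.14). LAMB1, the laminin beta 1 chain, was called lower in LH+BMP6 against LH (-0.33 ± 0.11, limma adjusted p = 0.0452), with 10.77, 10.87, 10.83 and 11.10 in LH+BMP6 cultures, against 11.37, 11.19, 11.17 and 11.15 in LH cultures. The groups did not overlap but nearly met, and the call was lost without any 1 of the 4 LH arrays or without LH+BMP6 replicate 1, 2 or 3 (adjusted p between 0.0600 and 0.134). In BMP6 against control LAMB1 differed by -0.24 ± 0.11 (limma adjusted p = 0.164). The other laminin genes LAMA4, LAMB2, LAMB3 and LAMC1 were not called in either comparison. The collagen IV genes COL4A1, COL4A3 and COL4A4 were not called either, with differences between -0.30 and 0.18 in BMP6 against control and between -0.15 and 0.02 in LH+BMP6 against LH. A dimmer COL4A1 probe set lay outside these ranges, at -0.50 and -0.30, and was not called in either.

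COL5A3, a minor fibrillar collagen, had log2 signals of 5.81, 6.05, 6.41 and 6.24 in BMP6 cultures, against 6.40, 7.02, 7.28 and 7.19 in control cultures. Only control replicate 1 lay within the range of the BMP6 arrays, and COL5A3 fell by 0.84 ± 0.20 (limma adjusted p = 0.00755). The call was lost when replicate 4 was left out of every group (-0.81, limma adjusted p = 0.0544). LH+BMP6 cultures had 5.88, 6.21, 6.57 and 6.49, against 6.65, 6.51, 7.15 and 7.16 in LH cultures, a difference of -0.58 ± 0.20 that was not called (limma adjusted p = 0.0530). That difference was called with dim probe sets left out, quantile normalization, a fixed or random replicate block, or the arrays of low hybridisation controls removed. The size of the BMP6 difference was not shown to depend on LH (interaction 0.26 ± 0.29, limma adjusted p = 1.00).

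Among the abundant fibrillar collagens, COL1A2, the alpha 2 chain of collagen I, rose slightly in LH+BMP6 against LH, by 0.26 ± 0.07 (limma adjusted p = 0.0178). LH+BMP6 cultures had 13.97, 13.80, 13.96 and 13.90, against 13.57, 13.52, 13.79 and 13.69 in LH cultures. The lowest LH+BMP6 array lay just above the highest LH array. BMP6 against control gave 0.20 ± 0.07, not called (limma adjusted p = 0.0693). It was called there with dim probe sets left out, with quantile normalization and with the replicate number as a fixed or random block. Only 2 to 28 probe sets on an array were brighter than that of COL1A2, so it sits near the top of the measurable range, where differences can be understated. A dimmer COL1A2 probe set gave 0.22 ± 0.13 and 0.35 ± 0.13, not called (limma adjusted p = 0.300 and 0.0647). The COL1A2 call was lost without LH replicate 1 or 2 or LH+BMP6 replicate 1 or 3 (adjusted p between 0.0505 and 0.0580). COL3A1, also near the top with 6 to 35 brighter probe sets, differed by 0.13 ± 0.06 and 0.12 ± 0.06 and was not called. COL1A1 differed by 0.01 (95% interval -0.47 to 0.49) and 0.35 (-0.14 to 0.83), not called in either.

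COL18A1, a basement membrane collagen whose C-terminal fragment is endostatin, was called higher in LH+BMP6 against LH (0.47 ± 0.16, limma adjusted p = 0.0425) but differed by -0.03 ± 0.16 in BMP6 against control. LH+BMP6 cultures had 5.47, 5.39, 5.46 and 5.46, against 4.43, 5.16, 5.11 and 5.18 in LH cultures. BMP6 cultures had 5.09, 5.46, 5.39 and 5.44, against 5.04, 5.24, 5.55 and 5.66 in control cultures. LH replicate 1, 1 of the arrays of low hybridisation-control signal, was the low point of the LH group, and without it the difference was 0.29 (limma adjusted p = 0.150). The call was also lost without any 1 LH+BMP6 array (adjusted p between 0.0654 and 0.0862). The interaction was 0.50 ± 0.22 (unadjusted p = 0.0387 and adjusted p = 1.00 by limma), so the BMP6 difference with LH was not shown to differ from that without.

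**Figure D2:**
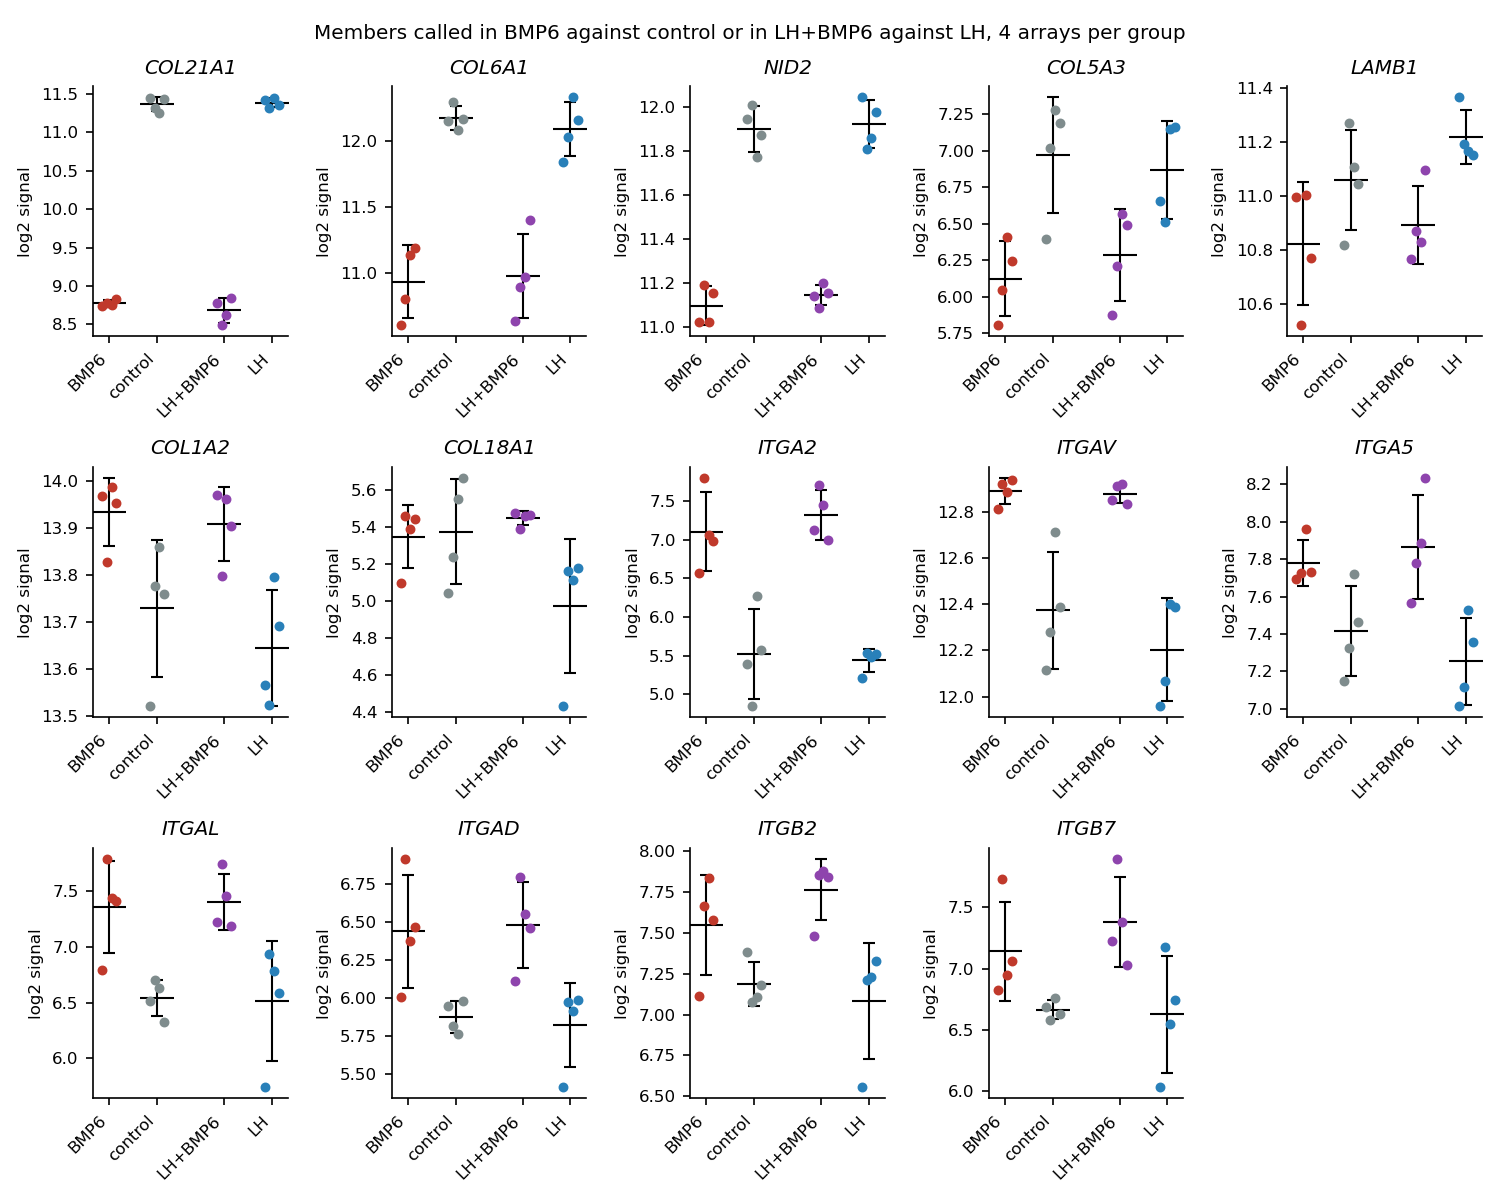
Log2 signal on each array for the 14 genes called in BMP6 against control or in LH+BMP6 against LH; points are arrays, horizontal lines group means and bars 1 SD (4 arrays per group), each panel with its own scale. COL21A1, COL6A1 and NID2 are lower on all 8 arrays with BMP6, ITGA2, ITGAV and ITGAD are higher on all 8, and LH replicate 1 is the lowest LH point for ITGAL, ITGAD, ITGB2, ITGB7 and COL18A1, among others.

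ITGA2, which pairs with the beta 1 chain into a collagen receptor, showed the largest rise of the family. Its log2 signals were 6.57, 7.80, 7.07 and 6.99 in BMP6 cultures, against 5.39, 4.84, 6.27 and 5.57 in control cultures. LH+BMP6 cultures had 7.13, 7.71, 7.45 and 6.997, against 5.21, 5.54, 5.48 and 5.52 in LH cultures. The groups did not overlap, and BMP6 replicate 1 and control replicate 3 came closest to each other. The rise was 1.59 ± 0.26 in BMP6 against control, 3.00-fold (limma adjusted p = 0.000436), and 1.89 ± 0.26 in LH+BMP6 against LH, 3.70-fold (limma adjusted p = 8.61e-05). A second, dimmer ITGA2 probe set was not called (0.32 ± 0.12, limma adjusted p = 0.0852, and 0.20 ± 0.12, limma adjusted p = 0.286), and the mean of both gave 0.95 and 1.04, called in both comparisons. ITGA10, the other collagen-binding alpha chain on the array, differed by -0.04 and -0.13 and was not called.

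ITGAV, the alpha V chain of receptors for vitronectin and fibronectin, was 12.81, 12.92, 12.89 and 12.94 in BMP6 cultures, against 12.11, 12.28, 12.71 and 12.39 in control cultures. It was 12.85, 12.91, 12.92 and 12.84 in LH+BMP6 cultures, against 11.96, 12.07, 12.40 and 12.39 in LH cultures. All 8 arrays with BMP6 lay above all 8 without, and their spread was the narrower one. ITGAV rose by 0.52 ± 0.11 (limma adjusted p = 0.00305) and by 0.68 ± 0.11 (limma adjusted p = 0.000335). Its dimmer probe set rose by 0.81 ± 0.20 (limma adjusted p = 0.00863) and by 1.08 ± 0.20 (limma adjusted p = 0.000968).

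Of the beta chains that pair with alpha V, none was called by its brightest probe set. For ITGB5 the 2 probe sets differed. The brighter one was exceeded by only 13 to 26 probe sets on an array and differed by -0.11 ± 0.05 in both comparisons, not called (limma adjusted p = 0.101 and 0.0906), although its 8 arrays with BMP6 (13.43 to 13.58) all lay below the 8 without (13.60 to 13.67). The dimmer one had 9.84, 9.56, 10.29 and 10.17 in BMP6 cultures, against 11.12, 11.31, 10.86 and 10.97 in control cultures, and 9.86, 9.91, 10.08 and 10.55 in LH+BMP6 cultures, against 11.06, 10.71, 11.16 and 11.18 in LH cultures. It fell by 1.10 ± 0.17 (limma adjusted p = 0.000207) and by 0.93 ± 0.17 (limma adjusted p = 0.000752). ITGB3 and ITGB6, further partners of alpha V, were not called (differences between -0.12 and 0.08). ITGB1, the shared partner of alpha 2, alpha 5 and alpha V, was 12.15 to 12.45 in BMP6 cultures, against 12.05 to 12.19 in control cultures, and differed by 0.18 ± 0.06 (limma adjusted p = 0.0615) and 0.16 ± 0.06 (limma adjusted p = 0.0880). The first ITGB1 difference was called with dim probe sets left out and with the replicate number as a fixed or random block.

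**Figure D3:**
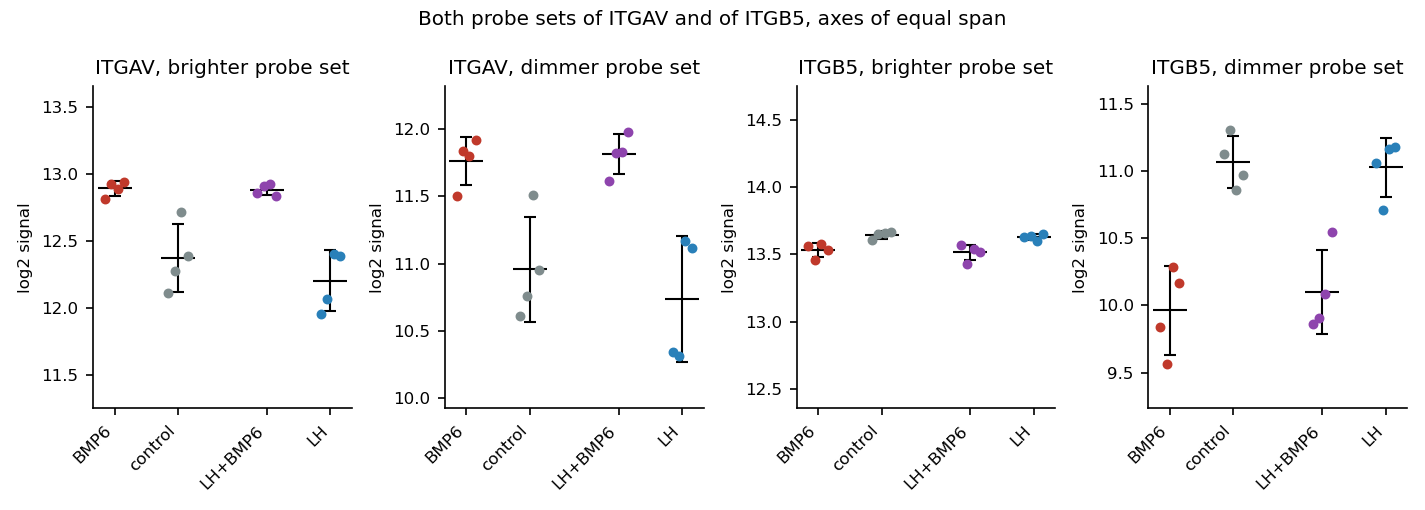
Log2 signal on each array for both probe sets of ITGAV and of ITGB5, with group means (lines) and 1 SD (bars, 4 arrays per group); the vertical axes span the same number of log2 units. The ITGAV probe sets are both higher with BMP6, the dimmer ITGB5 probe set is lower by 1.10 and 0.93, and the brighter one, near the top of the array's range, is lower by 0.11.

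ITGA5, the alpha chain of the classical fibronectin receptor, was 7.56, 7.78, 7.89 and 8.23 in LH+BMP6 cultures, against 7.01, 7.12, 7.53 and 7.36 in LH cultures, a rise of 0.61 ± 0.15 (limma adjusted p = 0.00595). In BMP6 against control it differed by 0.36 ± 0.15 and was not called (limma adjusted p = 0.0987). The call in LH+BMP6 against LH was lost when replicate 4 was left out of every group (limma adjusted p = 0.0542) and with the mean of its 3 probe sets (0.22, limma adjusted p = 0.0633). The laminin-binding chains ITGA3 and ITGA7 were not called, with differences between -0.24 and -0.08.

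The remaining called integrins are chains found mainly on leukocytes: ITGAL pairs with ITGB2 into LFA-1, ITGAD also pairs with ITGB2, and ITGB7 pairs with ITGA4 or ITGAE. ITGAL was 6.79, 7.78, 7.43 and 7.41 in BMP6 cultures, against 6.52, 6.70, 6.63 and 6.33 in control cultures, a rise of 0.81 ± 0.23 (limma adjusted p = 0.0184). In LH+BMP6 cultures it was 7.22, 7.74, 7.45 and 7.19, against 5.74, 6.94, 6.78 and 6.59 in LH cultures, a rise of 0.89 ± 0.23 (limma adjusted p = 0.00971). Within each comparison the groups did not overlap, but the first call was lost without BMP6 replicate 2 or control replicate 4 (limma adjusted p = 0.0637 and 0.0542). A dimmer ITGAL probe set was not called in either (0.28 ± 0.13 and 0.29 ± 0.13, limma adjusted p = 0.150 and 0.116). ITGAD was 6.01, 6.91, 6.37 and 6.47 in BMP6 cultures, against 5.95, 5.81, 5.76 and 5.98 in control cultures (0.56 ± 0.18, limma adjusted p = 0.0327), and 6.11, 6.80, 6.55 and 6.46 in LH+BMP6 cultures, against 5.41, 5.98, 5.92 and 5.98 in LH cultures (0.66 ± 0.18, limma adjusted p = 0.0125). The groups did not overlap. The first ITGAD call was lost without any 1 of control replicates 1 to 3 or BMP6 replicates 2 to 4 (adjusted p between 0.0524 and 0.113), and the second without LH replicate 1 (0.52, limma adjusted p = 0.0510). With the 3 arrays of low hybridisation controls removed, ITGAD was called in neither (0.54 and 0.52, limma adjusted p = 0.115 and 0.0718). Its dimmer probe set went the other way, by -0.15 and -0.17, and was not called in either. With the mean of its 2 probe sets (0.21 and 0.24) ITGAD was called in neither.

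ITGB2 and ITGB7 were called in LH+BMP6 against LH. ITGB2 was 7.48, 7.85, 7.87 and 7.84 in LH+BMP6 cultures, against 6.56, 7.21, 7.23 and 7.33 in LH cultures, with no overlap (0.68 ± 0.17, limma adjusted p = 0.00683). ITGB7 was 7.22, 7.89, 7.38 and 7.03, against 6.03, 7.18, 6.54 and 6.75 in LH cultures, with LH replicate 2 above the lowest LH+BMP6 array (0.76 ± 0.22, limma adjusted p = 0.0230). Without LH replicate 1 the ITGB7 difference was 0.56 (limma adjusted p = 0.0899), and the call was also lost without LH replicate 3 or LH+BMP6 replicate 2 or 3 (adjusted p between 0.0512 and 0.0838). In BMP6 against control both were below the threshold for a call (ITGB2 0.36 ± 0.17, limma adjusted p = 0.153; ITGB7 0.48 ± 0.22, limma adjusted p = 0.164). Neither interaction was called (ITGB2 0.32 ± 0.23 and ITGB7 0.28 ± 0.32, limma adjusted p = 1.00 each). The other leukocyte chains, ITGA4, ITGAE and ITGAM, were not called, and ITGA4 and ITGAM lay under the lower quartile on all 16 arrays.

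Of 11 leukocyte markers measured, 1 rose and 0 fell in BMP6 against control, where 9.31% of all named genes were called higher, and 6 rose and 0 fell in LH+BMP6 against LH, where 11.7% were. The monocyte marker CD14 rose in both (1.13 ± 0.24, limma adjusted p = 0.00286, and 1.04 ± 0.24, limma adjusted p = 0.00462). The T cell markers CD3E, CD3D and CD2, the pan-leukocyte marker PTPRC and the macrophage marker CD68 rose in LH+BMP6 against LH, by between 0.46 and 0.95. AIF1, CSF1R, TYROBP and FCER1G were not called in either comparison. In that order they averaged 6.46, 5.88, 5.94 and 5.92 in BMP6 cultures, against 6.53, 5.85, 5.83 and 5.80 in control cultures. The averages were 6.65, 5.90, 6.05 and 5.97 in LH+BMP6 cultures, against 6.52, 5.91, 5.82 and 5.97 in LH cultures. The mean log2 signal of the 11 markers was 6.64 to 7.15 on BMP6 arrays, against 6.61 to 6.65 on control arrays, and 6.96 to 7.21 on LH+BMP6 arrays, against 6.25 to 6.79 on LH arrays. No marker lay under the lower quartile on all 4 control or all 4 LH arrays, and 1 (CD79A, a B cell marker) did in BMP6 and in LH+BMP6 cultures. The lowest of the 4 LH values, 6.25, was that of LH replicate 1, which was also the lowest LH array for ITGAL, ITGAD, ITGB2 and ITGB7. The part of leukocytes in the integrin results was not tested.

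Of 7 fibroblast markers, 5 were called higher and 0 lower in BMP6 against control. DCN, FBLN1, LUM, PDGFRA and S100A4 rose by between 0.44 and 0.73. The shares of all named genes there were 9.31% called higher and 15.5% called lower. THY1 and DPT were not called there but averaged lower, at 8.05 and 9.27 in BMP6 cultures, against 8.39 and 9.62 in control cultures. In LH+BMP6 against LH, 4 rose (DCN, FBLN1, PDGFRA and S100A4) and 1, DPT, fell (-0.65 ± 0.18, limma adjusted p = 0.0150). LUM and THY1 were not called there, with means of 12.43 and 8.04 in LH+BMP6 cultures, against 11.98 and 8.32 in LH cultures. Of all named genes, 11.7% were called higher and 15.5% lower in LH+BMP6 against LH. The mean log2 signal of the 7 markers was 10.23 to 10.39 on BMP6 arrays, against 9.77 to 10.08 on control arrays. It was 10.25 to 10.39 on LH+BMP6 arrays, against 9.72 to 10.17 on LH arrays. Neither pair of ranges overlapped. The part of fibroblasts in the collagen and integrin results was not tested. Among other cell types, 0 endothelial markers rose and 1 of 13 (CLDN5) fell in each comparison, 2 of 9 markers of pericytes and smooth muscle rose and 0 fell in BMP6 against control (3 and 2 in LH+BMP6 against LH), and 0 of 6 granulosa cell markers were called in either. Of 6 epithelial markers, 0 rose and 1, KRT18, fell in BMP6 against control (-1.30 ± 0.28, limma adjusted p = 0.00298), and 1, KRT5, rose (0.42 ± 0.15, limma adjusted p = 0.0493) and KRT18 fell (-1.18 ± 0.28, limma adjusted p = 0.00542) in LH+BMP6 against LH.

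Over all 16 arrays, 7 of the 53 genes had all 8 arrays with BMP6 on 1 side of all 8 without. ITGA2, ITGAD and ITGAV lay above and COL6A1, COL21A1, NID2 and ITGB5 below, against 16.7% of all named genes (5.97% above and 10.7% below). The sum of squares of each gene over the 16 arrays was also split into parts for BMP6, LH, their interaction and the replicate number. This was done for the 53 genes only, so the counts of genes by largest part cannot be set against all named genes. BMP6 took the largest part in 18 genes and at least 50% in 14. Its part was 99.5% for COL21A1, 96.1% for NID2, 88.8% for COL6A1, 83.9% for ITGA2 and 77.4% for ITGAV. The median gene had 19.1% for BMP6 and 1.80% for LH. If no term had an effect, each of these would take 6.67% on average, but that is a mean and cannot be set directly against a median.

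For 10 genes the replicate number took the largest part, and for 6 it took at least 50%: COL12A1 (84.9%), COL11A1 (77.9%), COL17A1 (58.0%), COL1A1 (56.0%), COL4A1 (53.3%) and NID1 (51.8%). The median over the 53 genes was 19.0% for the replicate number, on 3 degrees of freedom, and 32.1% for the remainder, on 9. A replicate number with no effect would on average take 20.0% only if no other term had an effect either, so 20.0% is no yardstick here. An effect of the replicate number on the typical gene was not tested. COL12A1, a fibril-associated collagen, averaged 8.64 and 8.50 over the 4 arrays of replicates 1 and 2, and 9.45 and 9.51 over those of replicates 3 and 4. COL11A1, a minor fibrillar collagen, averaged 5.68 and 5.57 in replicates 1 and 2, and 6.75 and 6.73 in replicates 3 and 4. COL1A1, the alpha 1 chain of collagen I, averaged 11.98 and 11.87, and 12.51 and 12.41. All 3 were thus lower in replicates 1 and 2 than in replicates 3 and 4, whatever the treatment, whereas COL21A1 differed by treatment in every replicate. Whether a replicate number marks 1 batch of ovaries is not given for single arrays.

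**Figure D4:**
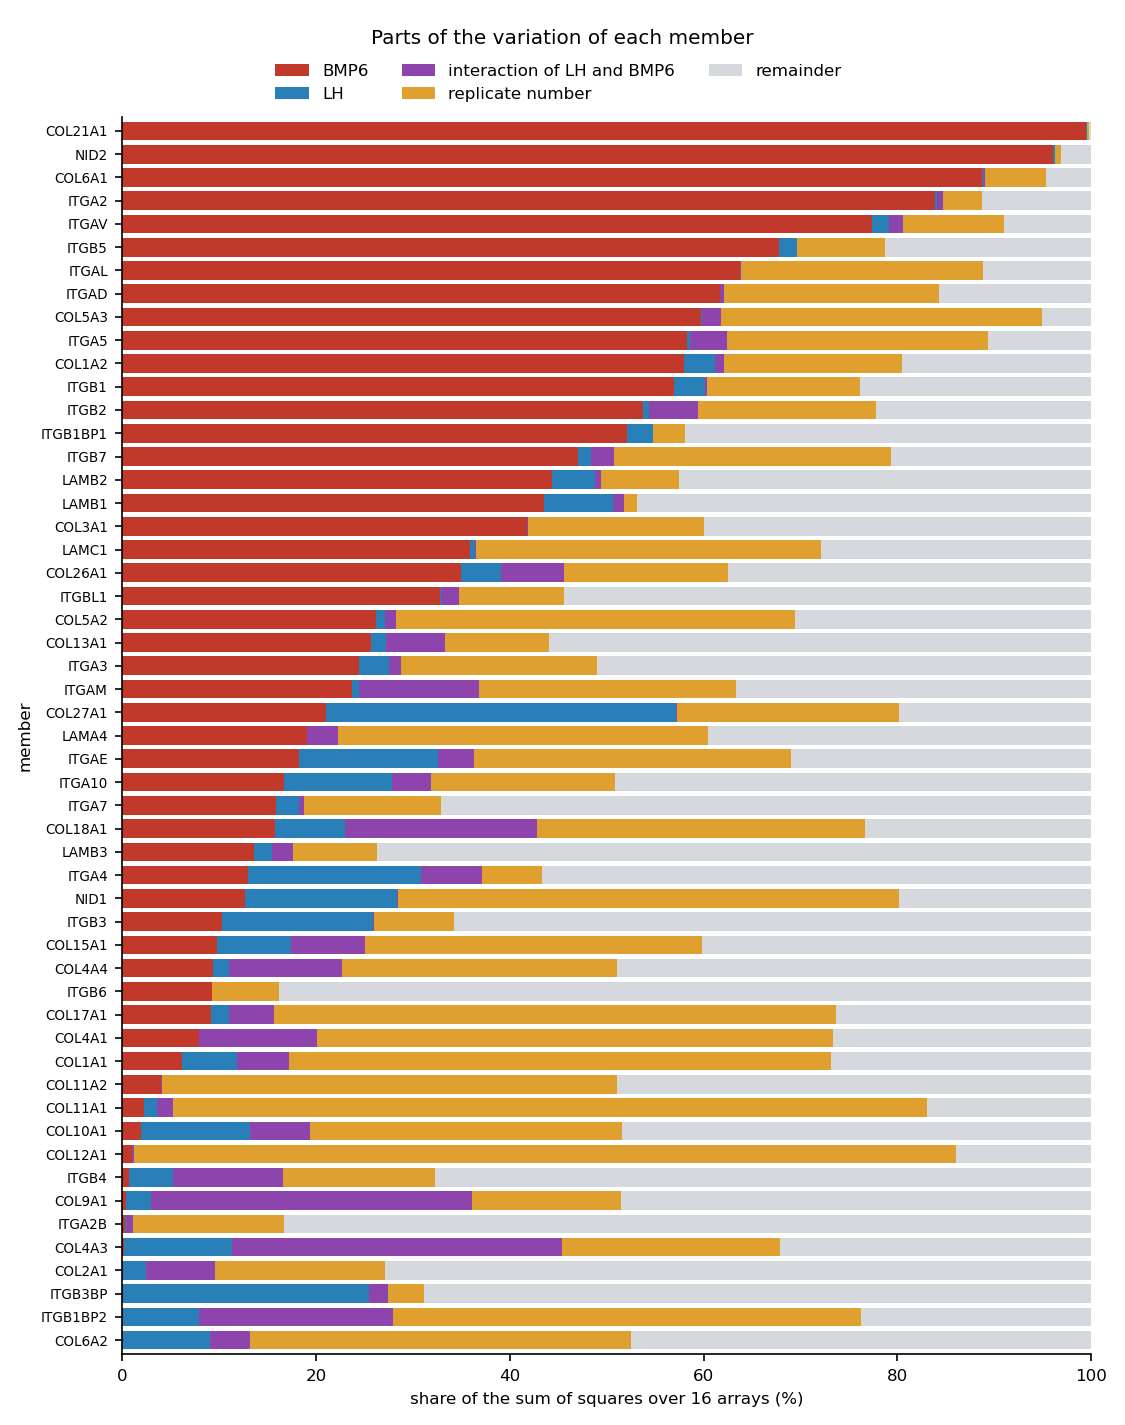
Share of each gene's sum of squares over 16 arrays (horizontal axis, %) taken by BMP6 (1 degree of freedom), LH (1), their interaction (1), the replicate number (3) and the remainder (9), ordered by the BMP6 share. BMP6 takes 99.5% for COL21A1 at the top, and the replicate number takes 84.9% for COL12A1 near the bottom.

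**Figure D5:**
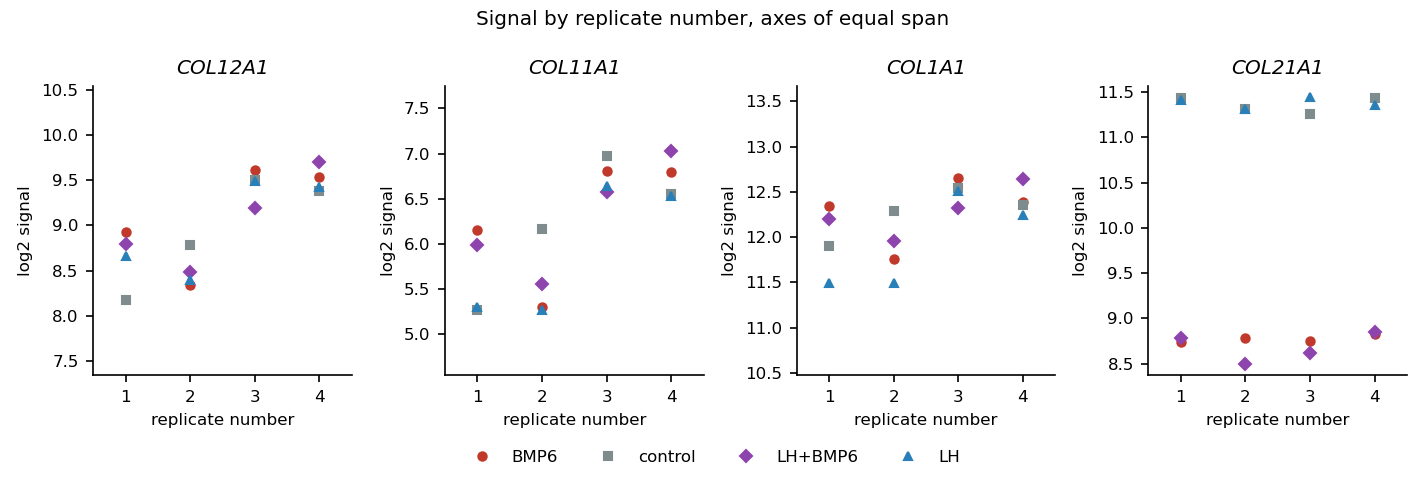
Log2 signal of COL12A1, COL11A1, COL1A1 and COL21A1 against the replicate number, with 1 symbol per group and axes of equal span. The first 3 are higher in replicates 3 and 4 than in 1 and 2, while COL21A1 splits by BMP6 in each replicate.

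LH called none of the 53 genes. In LH against control 0 were called, against 0.0218% of all named genes, and 3 had an unadjusted limma p under 0.05, as did 496 of all 9155. In LH+BMP6 against BMP6 0 were called, against 0.0%, and 2 had an unadjusted limma p under 0.05, as did 128 of all 9155. In the interaction 0 were called, against 0.0%, and 3 had an unadjusted limma p under 0.05, as did 264 of all 9155. The smallest p values in LH against control were those of COL18A1 (-0.40 ± 0.16, limma adjusted p = 0.889), COL27A1 (-0.24 ± 0.10, limma adjusted p = 0.907) and ITGA4 (0.33 ± 0.14, limma adjusted p = 0.908). ITGA4 was 3.64, 4.27, 3.39 and 3.75 in LH cultures, against 3.47, 3.35, 3.397 and 3.52 in control cultures, and 3.41, 3.31, 3.75 and 3.39 in LH+BMP6 cultures, against 3.44, 3.43, 3.16 and 3.49 in BMP6 cultures. Both pairs of groups overlapped, with LH replicate 2 the highest array. COL27A1, a fibrillar collagen, was 9.58, 9.34, 9.72 and 9.93 in LH cultures, against 9.87, 9.81, 9.94 and 9.89 in control cultures. In LH+BMP6 cultures it was 9.42, 9.45, 9.52 and 9.54, against 9.62, 9.62, 9.84 and 9.70 in BMP6 cultures. Its LH+BMP6 arrays all lay below its BMP6 arrays (-0.21 ± 0.10, limma adjusted p = 1.00), and it is the 1 gene whose largest part of the sum of squares was LH (36.1%). A dimmer COL27A1 probe set differed by -0.16 in LH against control but by 0.10 in LH+BMP6 against BMP6, not called in either. The others named by their p were COL4A3 (-0.26 ± 0.09) and COL9A1 (0.14 ± 0.07) in LH+BMP6 against BMP6, and COL4A3 (-0.33 ± 0.13), COL9A1 (0.22 ± 0.10) and COL18A1 (0.50 ± 0.22) in the interaction, each at an adjusted p of 1.00 by limma. COL4A3, a basement membrane collagen IV chain, was 4.80, 4.83, 4.80 and 5.08 in LH+BMP6 cultures, against 5.17, 5.11, 5.12 and 5.14 in BMP6 cultures, with no overlap, and 5.24, 4.82, 5.01 and 5.05 in LH cultures, against 5.02, 4.93, 4.85 and 5.03 in control cultures, with overlap. A dimmer COL4A3 probe set went the other way, by 0.14 in LH+BMP6 against BMP6 and 0.03 in the interaction, not called in either. COL9A1 was 3.36, 3.50, 3.51 and 3.59 in LH+BMP6 cultures, against 3.34, 3.34, 3.29 and 3.42 in BMP6 cultures, and 3.396, 3.17, 3.47 and 3.42 in LH cultures, against 3.50, 3.45, 3.39 and 3.45 in control cultures. Its groups overlapped in both. In LH against control, 52 of 53 intervals lay within 1 log2 unit of 0, and in LH+BMP6 against BMP6 all 53 did, so a change above 2-fold by LH was outside the 95% interval for these genes, except COL11A1 in LH against control (-1.20 to 0.59).

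Most genes on 4 lists of proteins that make, modify or bind these molecules were not called, except among the other matrix receptors, and the shares of all named genes called were 24.8% in BMP6 against control and 27.2% in LH+BMP6 against LH. Of 24 measured genes for the modification, folding and cross-linking of collagen, 5 rose and 3 fell in BMP6 against control, and 7 rose and 2 fell in LH+BMP6 against LH (list medians 0.04 and 0.13). PLOD2, a collagen lysyl hydroxylase, rose by 1.04 ± 0.25 (limma adjusted p = 0.00655) and by 0.85 ± 0.25 (limma adjusted p = 0.0214). Its control arrays spread widely, from 8.60 to 10.43 (SD 0.80), below the BMP6 arrays at 10.68 to 10.94 (SD 0.10). The part of the lowest control array in the first PLOD2 difference was not tested. The prolyl 4-hydroxylase chains P4HA2 (0.74 ± 0.13 and 0.71 ± 0.13) and P4HA3 (0.96 ± 0.16 and 0.52 ± 0.16) rose as well. LOXL1, a cross-linking oxidase, rose by 1.26 ± 0.27 in LH+BMP6 against LH. It averaged 8.57 in BMP6 cultures, against 8.02 in control cultures. P3H2, a prolyl 3-hydroxylase, went the other way: it fell by 1.64 ± 0.28 (limma adjusted p = 0.000627) and by 1.33 ± 0.28 (limma adjusted p = 0.00266).

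Of 10 further basement membrane and matrix partners, 3 rose and 1 fell in BMP6 against control, and 2 rose and 1 fell in LH+BMP6 against LH. EGFLAM, pikachurin, fell by 1.02 ± 0.19 and 1.12 ± 0.19 (limma adjusted p = 0.00107 and 0.000457). FN1, fibronectin, a ligand of alpha 5 and alpha V integrins, rose by 0.60 ± 0.17 and 0.65 ± 0.17 (limma adjusted p = 0.0180 and 0.00983). FBLN1, fibulin 1, rose by 0.70 ± 0.15 and 0.62 ± 0.15, and HSPG2, perlecan, rose by 0.53 ± 0.18 in BMP6 against control (limma adjusted p = 0.0469). HSPG2 was not called in LH+BMP6 against LH, with means of 7.22 in LH+BMP6 cultures and 6.85 in LH cultures. FBLN1 is also 1 of the fibroblast markers.

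Of 21 genes that link integrins to the cytoskeleton and to signalling, 3 rose and 1 fell in BMP6 against control, and 7 rose and 0 fell in LH+BMP6 against LH. PTK2, focal adhesion kinase, rose by 0.44 ± 0.07 and 0.50 ± 0.07 (limma adjusted p = 0.000518 and 0.000159). FERMT2, kindlin 2, rose by 0.40 ± 0.11 in BMP6 against control, as did CRK, an adaptor, by 0.19 ± 0.06. FERMT2 and CRK averaged 10.825 and 10.58 in LH+BMP6 cultures, against 10.43 and 10.40 in LH cultures. LIMS2 fell by 0.43 ± 0.12 in BMP6 against control. It was not called in LH+BMP6 against LH, with means of 7.31 in LH+BMP6 cultures and 7.47 in LH cultures. TNS1 (tensin 1), ACTN1 (alpha actinin 1) and TGFB1I1 (Hic-5) rose by 0.67 ± 0.19, 0.66 ± 0.16 and 0.51 ± 0.17 in LH+BMP6 against LH. None of them was called in BMP6 against control. Their means were 9.56, 10.53 and 8.64 in BMP6 cultures, against 9.29, 10.13 and 8.64 in control cultures.

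Of 9 other matrix receptors, 4 rose and 2 fell in each comparison. MRC2, an endocytic receptor for collagen, rose by 1.35 ± 0.22 (limma adjusted p = 0.000435) and 1.63 ± 0.22 (limma adjusted p = 7.65e-05). SDC3, syndecan 3, rose by 0.97 ± 0.18 and 1.25 ± 0.18, and CD44, a hyaluronan receptor, by 0.71 ± 0.21 and 1.19 ± 0.21. CD151, a tetraspanin that associates with laminin-binding integrins, fell by 0.75 ± 0.10 and 0.76 ± 0.10 (limma adjusted p = 6.79e-05 and 5.62e-05). No gene of these 4 lists was called in LH against control, in LH+BMP6 against BMP6 or in the interaction.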

How the data were processed

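The deposited table holds log2 signals, which the authors made by robust multi-array averaging (RMA) in Affymetrix Expression Console, per the submitters' processing notes. They were used as deposited. All 24128 probe sets but 112 Affymetrix controls were tested, with no filter on signal and no estimate of background, and the precision comes from 4 arrays a group. Gene names are those of GEO's platform annotation, which gave 1 symbol to 13292 probe sets, several to 86 and none to 10638. Only the first kind was used.

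Differences were fitted with limma 3.58.1 in R 4.3.3, on all 16 arrays with 4 group means and trended eBayes, which was checked on simulated data. Adjusted p values are Benjamini-Hochberg values over 24016 probe sets. Errors are standard errors unless named SD. Tables were made with pandas 2.3.3 and numpy 2.4.6, and figures with matplotlib 3.10.9, in Python 3.11.15.

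The members and the gene lists were chosen with earlier results of these data known. Values on every array are given for called members (up to 6 per class) and for the 3 members with the smallest p where under 3 were called. Of each list, up to 4 called genes with the largest difference are named. Outside this rule, ITGB5, ITGB1, COL6A2, COL12A1, COL11A1, COL1A1 and the leukocyte markers were named after their values were seen. Other genes outside it are named too, among them COL3A1, NID1, ITGA10, LAMC1, ITGBL1, COL26A1 and some of the fibroblast markers.

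The alternatives tried were untrended eBayes, robust eBayes, a filter on probe sets whose mean was under the 40th percentile, a fit to only the arrays compared, quantile normalization, the mean of a gene's probe sets, the replicate number as a fixed or random block (statmod 1.5.0), each array or replicate number left out, and removal of the 3 arrays with low hybridisation controls.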

Additional observations from a re-analysis of the deposited data

Results flagged for a closer look

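In 72 groups of 4 arrays, the highest or lowest array was compared with the others by Dixon's ratio, and 7 values lay beyond its 95% critical value. Chance alone would mark about 1 group in 20. Of the 7, 4 belong to LH replicate 1, an array of low hybridisation-control signal, which was low for COL18A1 (4.43, others 5.11 to 5.18), ITGA2 (5.21, others 5.48 to 5.54), ITGAD (5.41, others 5.92 to 5.98) and ITGB2 (6.56, others 7.21 to 7.33). ITGB2 was also low in LH+BMP6 replicate 1 (7.48, others 7.84 to 7.87). COL4A3 was high in LH+BMP6 replicate 4 (5.08, others 4.80 to 4.83), and ITGA5 was high in BMP6 replicate 3 (7.96, others 7.70 to 7.73).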

How the results depend on the processing

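No difference of a single named member changed sign under the alternatives run, but the members' medians, all near 0, did. COL21A1, COL6A1, NID2, ITGA2 and ITGAV kept their calls in both BMP6 comparisons throughout, and ITGB2 kept its call in LH+BMP6 against LH. For single members, 581 values stayed on the same side of the threshold and 62 lost the call. The count called higher in BMP6 against control was 4, and 2 to 6 with arrays or replicate numbers left out (2 without replicate 3 and 2 without replicate 4). The count called higher in LH+BMP6 against LH was 9, and 4 to 9 (5 without LH replicate 1 and 4 without replicate 4). The count called lower there was 4, and 7 with dim probe sets left out, where 38 members remain and COL5A3, COL26A1 and ITGB5 are added while COL18A1 is not tested. In BMP6 against control, the dim filter and the random block each added COL1A2 and ITGB1, quantile normalization COL1A2 and COL3A1, and only the arrays compared ITGBL1. In LH+BMP6 against LH, quantile normalization added COL26A1, COL3A1 and COL5A3, the random block COL26A1 and COL5A3, and untrended eBayes COL26A1. With arrays or replicate numbers left out, the members' median was -0.0017 to 0.0891 in BMP6 against control (lowest without BMP6 replicate 4), and -0.0125 there with the 3 arrays of low hybridisation controls removed, -0.0071 to 0.0791 in LH+BMP6 against LH, -0.0371 to 0.0348 in LH against control, -0.0075 to 0.0442 in LH+BMP6 against BMP6 and -0.0202 to 0.0538 in the interaction. LAMB1 in LH+BMP6 against LH also lost its call without the trend (limma adjusted p = 0.0543), and COL18A1 with only the arrays compared (limma adjusted p = 0.0593). With those 3 arrays removed, 7 members were called in BMP6 against control and 11 in LH+BMP6 against LH, where COL18A1, ITGAD, ITGB7 and LAMB1 were lost and COL26A1 and COL5A3 gained. When a whole replicate number was left out, calls were lost for ITGAL (without 2, 3 or 4), ITGAD (2, 3 or 4) and COL5A3 (4) in BMP6 against control, and for COL18A1 (any), LAMB1 (1, 3 or 4), ITGB7 (1, 3 or 4), COL1A2 (1 or 4), ITGAD (3 or 4) and ITGA5 (4) in LH+BMP6 against LH, with adjusted p between 0.0501 and 0.200. The causes were not tested. Small differences near the top or bottom of the signal range cannot be resolved.

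Arrays with the same replicate number correlated in their deviations from the group means at a mean r of 0.0376 for BMP6 and control (-0.111 for replicate 2) and 0.196 for LH+BMP6 and LH, against -0.0115 and -0.0655 for different numbers. The mean r was 0.156 for LH and control and 0.38 for LH+BMP6 and BMP6 (0.0778 to 0.688), against -0.0499 and -0.124 for different numbers. Since not every correlation was over 0.1 and no label states what a number marks, the numbers were not taken to pair arrays, although those of LH+BMP6 and BMP6 may. With the replicate block, the count called higher in BMP6 against control was 9 and in all 13 members were called, with COL1A2, ITGA5, ITGAM, ITGB1 and ITGB7 added. In LH+BMP6 against LH 15 members were called, higher and lower together, with COL5A3, COL26A1 and LAMC1 added and LAMB1 lost (limma adjusted p = 0.0544). All 20 counts of the 4 lists stayed within 1.5 times under the block.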

Other observations

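LAMC1, the laminin gamma 1 chain, has 6 probe sets, and their differences are not all alike. The brightest differed by 0.34 ± 0.17 in BMP6 against control (limma adjusted p = 0.192) and by 0.38 ± 0.17 in LH+BMP6 against LH (limma adjusted p = 0.139). A dimmer one was called higher in LH+BMP6 against LH (0.52 ± 0.16, limma adjusted p = 0.0264) but differed by -0.03 ± 0.16 in BMP6 against control. The other 4 were not called in either, and all but the dimmest of them averaged higher with BMP6 in both comparisons. The dimmest averaged 4.83 in BMP6 cultures, against 4.87 in control cultures, and 4.82 in LH+BMP6 cultures, against 4.85 in LH cultures.

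Of the 4 genes that share the integrin prefix without encoding an integrin chain, 0 were called. ITGBL1, a secreted protein with integrin-like repeats, differed by 0.56 ± 0.23 in BMP6 against control (limma adjusted p = 0.103), where all 4 BMP6 arrays lay above all 4 control arrays, and by 0.34 ± 0.23 in LH+BMP6 against LH (limma adjusted p = 0.335). COL26A1, a collagen of no larger class, just missed the threshold in LH+BMP6 against LH (-0.33 ± 0.11, limma adjusted p = 0.0511).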
